A study of Mus musculus with 6 samples.

Results

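Notch signalling passes between neighbouring cells: a Delta or Jagged ligand on 1 cell binds a Notch receptor on the next, proteases release the receptor's intracellular domain, and that domain joins the DNA-binding protein RBPJ and a Mastermind co-activator to switch on HES and HEY genes, whose products repress transcription. In skeletal muscle the pathway is known for holding satellite cells, the stem cells of the tissue, and their progeny in an undifferentiated state, and its activity declines as myoblasts differentiate. The genes described here are the receptors Notch1, Notch2 and Notch3, the ligands Jag1, Jag2 and Dll1, and the targets Hes1, Hey1, Hey2 and Heyl. They were taken by gene name from the deposited count table, where all 10 were found among 56792 gene rows.

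The RNA came from C2C12, a wild-type mouse myoblast line that fuses into myotubes when serum is lowered. The lenvatinib group was exposed to 1 µM lenvatinib, an inhibitor of VEGF, FGF and PDGF receptor kinases, KIT and RET, and the untreated group was not; both groups had differentiated for 4 days in horse serum, and each has 3 libraries. Separate cultures per replicate are not named in the labels, so the p-values reflect spread among libraries that may be technical; a solvent control is not named either. Gene counts summed to between 24566768 and 32406563 per lenvatinib library and between 25529288 and 28886472 per untreated library. Muscle genes were abundant: embryonic myosin Myh3 stood at 6382 ± 71.7 CPM in lenvatinib and 5968 ± 138 CPM in untreated libraries (SD, n = 3 each). CPM are a gene's counts scaled to a common library total with TMM factors, and errors of CPM are SD over n = 3 libraries throughout.

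With lenvatinib, Notch1, Jag1, Jag2 and Hey1 transcripts were higher and Notch3 transcripts were lower. Notch2, Dll1, Hes1 and Heyl did not pass the test, and Hey2 had too few counts to be tested. A member is called here when its Benjamini-Hochberg adjusted p in edgeR's quasi-likelihood test over 14989 gene rows is under 0.05. Of the 9 members tested, 4 were called higher and 1 lower, 55.6% in all, while 28.2% of all rows tested were called (13.3% of rows higher and 14.9% lower). The libraries of the groups did not overlap in 6 of the 9, against 40.1% of all rows. The median log2 fold change was 0.16 over the 9 members and 0.003 over all rows.

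**Figure D1:**
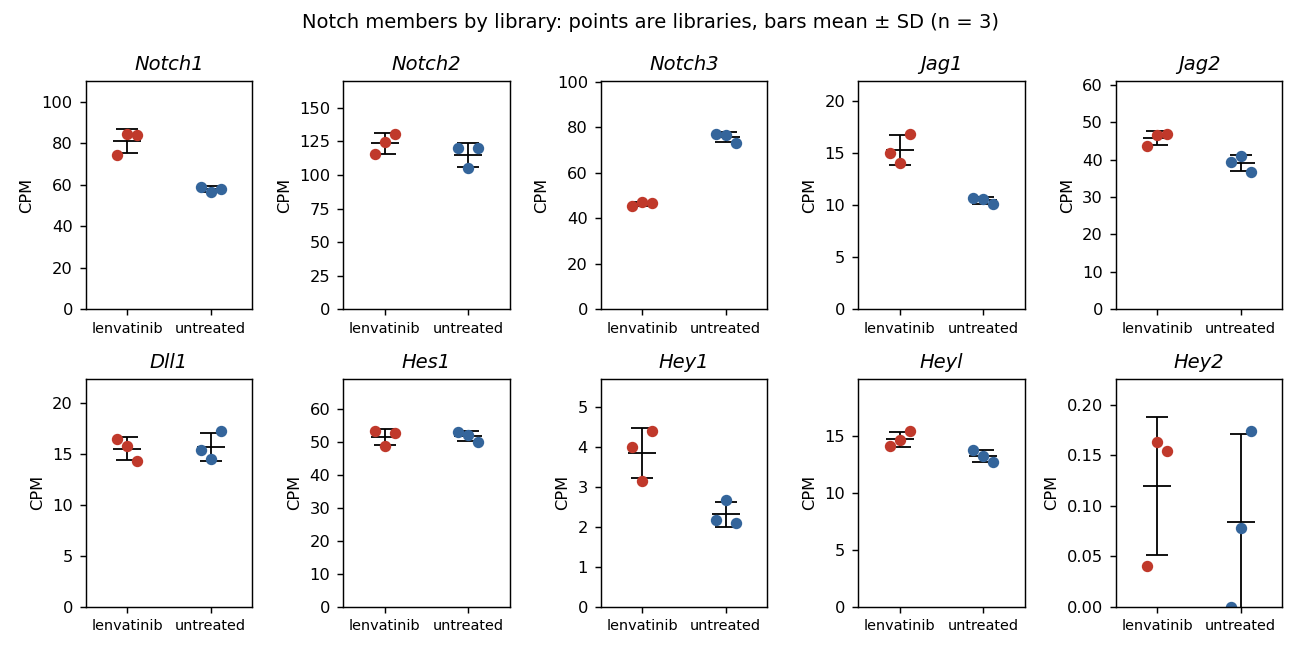
Level of each of the 10 genes in CPM (vertical axis, linear from 0, its own scale in each panel) in 3 lenvatinib libraries on the left and 3 untreated libraries on the right of each panel; points are libraries and bars are mean ± SD. Notch3 lies near 46 CPM in lenvatinib libraries and near 76 CPM in untreated libraries, Notch1 lies higher in every lenvatinib library, and the Hey2 panel spans only 0 to 5 counts.

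Notch3 moved most among the receptors, and downward. Notch3 is the Notch receptor of vascular smooth muscle cells and is also made by muscle precursors; its row lies on chromosome 17 from 32339794 to 32385826, minus strand, in the positions of the deposited table. It stood at 45.3, 47.0 and 46.5 CPM in the lenvatinib libraries and at 77.3, 76.8 and 73.3 CPM in the untreated libraries. Every lenvatinib library was below every untreated one, with a gap far wider than the spread within either group. The level was 1.64-fold lower with lenvatinib (log2 fold change -0.71 ± 0.04 SE, edgeR adjusted p = 5.25e-18), a larger absolute change than in 94.5% of rows tested. In bulk RNA, fewer cells that make a transcript and less of it per cell cannot be told apart.

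Notch1 moved in the opposite direction. This receptor, a main mediator of Notch signalling in satellite cells, has its row on chromosome 2 from 26347915 to 26406675, minus strand. Its level was 74.7, 84.7 and 84.2 CPM in the lenvatinib libraries, against 59.2, 56.5 and 58.0 CPM in the untreated libraries. The first lenvatinib library was the lowest of its group and still above all untreated libraries. Notch1 was 1.4-fold higher with lenvatinib (log2 fold change 0.49 ± 0.04 SE, edgeR adjusted p = 1.25e-11).

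Notch2, on chromosome 3 from 97920843 to 98057677, plus strand, was the most abundant receptor. It stood at 115.6, 124 and 131 CPM in the lenvatinib libraries and at 119.8, 105 and 120.1 CPM in the untreated libraries, so the groups overlapped. The log2 fold change was 0.11, with a 95% interval from -0.05 to 0.27 (edgeR adjusted p = 0.311). It passed only when rows with few counts were kept (adjusted p = 0.00836) or without the first lenvatinib library (adjusted p = 0.0478).

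The mix of receptor transcripts differed between the groups. Levels of different genes were set side by side as CPM per kilobase of the row's deposited feature length. That length was not checked against the transcripts these cells make. On this scale Notch3 made up 25.9 ± 0.91% of the 3 receptors in lenvatinib libraries and 40.1 ± 1.84% in untreated libraries (SD, n = 3 each). Notch1 made up 25.7 ± 0.63% in lenvatinib and 17.3 ± 0.19% in untreated libraries, and Notch2 48.4 ± 0.80% in lenvatinib and 42.6 ± 2.01% in untreated libraries. For each of these shares the groups did not overlap, and the two-sided exact permutation test gave p = 0.1, the smallest that 3 against 3 libraries allow. The shares are not separate results, because a lower share of Notch3 raises the others. Notch2 itself did not pass the test. The ratio of Notch1 to Notch3 per kilobase was 0.934, 1.02 and 1.02 in the lenvatinib libraries, against 0.434, 0.417 and 0.448 in the untreated libraries (exact permutation p = 0.1). Its size depends on the feature lengths, 14284 bases for Notch1 and 8089 for Notch3, which scale both groups alike. In plain CPM, Notch1 and Notch3 stood at 81.2 and 46.3 in lenvatinib and at 57.9 and 75.8 in untreated libraries. The sum of the 3 receptors was 22.1 ± 1.13 CPM per kilobase in lenvatinib and 23.4 ± 0.78 in untreated libraries, a difference within the overlap of the groups (exact permutation p = 0.2).

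The stretches of DNA just before the starts of Notch1 and Notch3 are shown because these receptors moved in opposite directions. They are the 250 bases before the RefSeq start on GRCm38.p6, read 5′ to 3′ on the gene's strand, with GGGCGG or its reverse complement (the GC box letters) and CANNTG (the E-box letters of basic helix-loop-helix factors) in capitals.
Notch1, chr2:26503823-26504072, minus strand: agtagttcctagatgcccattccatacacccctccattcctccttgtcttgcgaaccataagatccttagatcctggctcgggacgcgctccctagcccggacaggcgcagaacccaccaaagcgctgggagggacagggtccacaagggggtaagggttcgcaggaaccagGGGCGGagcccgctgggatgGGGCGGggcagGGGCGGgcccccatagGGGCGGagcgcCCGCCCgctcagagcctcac
Notch3, chr17:32166891-32167140, minus strand: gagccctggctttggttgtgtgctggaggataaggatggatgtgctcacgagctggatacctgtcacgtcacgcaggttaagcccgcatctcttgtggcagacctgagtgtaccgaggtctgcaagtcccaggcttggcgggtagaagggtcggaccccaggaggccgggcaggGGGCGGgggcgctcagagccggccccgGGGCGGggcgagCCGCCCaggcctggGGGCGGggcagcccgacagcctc
The Notch1 window held 5 GC boxes and the Notch3 window 4, on either strand with overlapping matches counted, and neither held an E-box. The Notch2 window also held 5 and the Jag2 window 5. The Hey2 window held 3, and the Jag1 window and the 2 Dll1 windows held 0. Of all 32851 such windows, 32.7% held at least 1 GC box and 4.09% held 4 or more. G and C made up 66.0% of the Notch1 window, 72.0% of Notch2, 68.8% of Notch3, 87.2% of Jag2 and 71.6% of Hey2. They made up 57.2% of the Jag1 window and 64.0% and 56.0% of the Dll1 windows. GC box counts were not compared with windows of like base composition. TGGGAA, the core letters that RBPJ binds, was in none of the Notch1, Notch2, Notch3, Jag1, Jag2 and Dll1 windows, and the Hey2 window held 1; 21.6% of all windows hold it. TGANTCA, the AP-1 letters, was in 1 of the 2 Dll1 windows and in no other member's window, with 6.75% of all windows holding it. These matches are descriptions of letters and not of binding. The RefSeq starts of Notch3 and of the Dll1 window with the AP-1 letters were not matched to a GENCODE M21 transcript.

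Among the ligands, both Jagged genes rose. Jag1, a ligand known in blood vessel and bile duct development, has its row on chromosome 2 from 136923376 to 136958564, minus strand. It stood at 15.0, 14.0 and 16.9 CPM in the lenvatinib libraries and at 10.7, 10.6 and 10.1 CPM in the untreated libraries. The lowest lenvatinib library was above the highest untreated library. Jag1 was 1.47-fold higher (log2 fold change 0.56 ± 0.08 SE, edgeR adjusted p = 9.6e-07).

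The 250 bases before the Jag1 start are given in the same way, since this ligand rose the most of the 3. The capitals mark its single E-box; the window held no GC box.
Jag1, chr2:137116521-137116770, minus strand: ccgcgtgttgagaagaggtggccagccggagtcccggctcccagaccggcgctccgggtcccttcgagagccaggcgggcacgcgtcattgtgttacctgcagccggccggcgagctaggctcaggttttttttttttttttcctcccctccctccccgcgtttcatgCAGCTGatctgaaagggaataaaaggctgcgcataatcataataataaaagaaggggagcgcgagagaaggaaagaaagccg
CANNTG is a common string, present in 66.2% of all windows.

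Jag2, the other Jagged ligand, lies on chromosome 12 from 112871439 to 112893396, minus strand. Its level was 43.7, 46.7 and 47.0 CPM in the lenvatinib libraries, against 39.3, 41.0 and 36.8 CPM in the untreated libraries. The groups did not overlap, but the change was small: 1.17-fold higher, with a log2 fold change of 0.23 ± 0.05 SE (edgeR adjusted p = 0.000262). Dll1, the Delta ligand needed for muscle progenitors in mouse embryos, lies on chromosome 17 from 15587616 to 15597134, minus strand. It stood at 16.5, 15.7 and 14.3 CPM in the lenvatinib libraries and at 15.3, 14.5 and 17.2 CPM in the untreated libraries. The groups overlapped, and the 95% interval of the Dll1 log2 fold change ran from -0.18 to 0.13 (edgeR adjusted p = 0.859).

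Summed per kilobase, the 3 ligands reached 12.1 ± 0.12 CPM per kilobase in lenvatinib and 10.5 ± 0.0072 in untreated libraries (SD, n = 3 each; exact permutation p = 0.1). Jag1 accounted for 21.3 ± 1.84% of that sum in lenvatinib and 16.8 ± 0.50% in untreated libraries, and Dll1 for 29.7 ± 2.43% in lenvatinib and 34.8 ± 3.09% in untreated libraries. For both shares the groups did not overlap, with an exact permutation p = 0.1. These shares also depend on each other, and Dll1 itself did not pass the test. The Jag2 share was 49.0 ± 1.62% in lenvatinib and 48.3 ± 2.65% in untreated libraries (exact permutation p = 0.7).

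**Figure D2:**
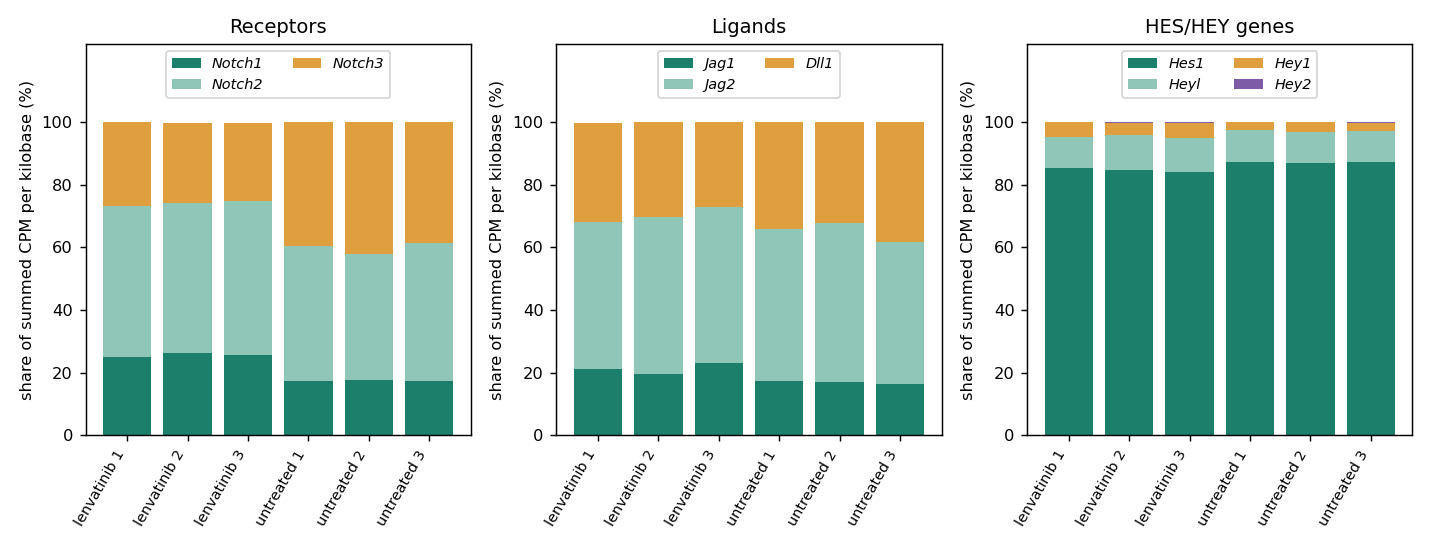
Share of each gene in the summed CPM per kilobase of its class (vertical axis, percent) for receptors, ligands and HES/HEY genes; each stacked bar is 1 library, lenvatinib 1 to 3 on the left and untreated 1 to 3 on the right. The Notch3 section is 25.0 to 26.8% in lenvatinib and 38.5 to 42.1% in untreated libraries, and Hes1 fills 84.0 to 87.4% of the HES/HEY bars in all libraries.

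The targets did not move together. Hes1, the repressor whose transcript is the classical readout of Notch activity in many cells, lies on chromosome 16 from 29883202 to 29886614, plus strand. It stood at 53.1, 48.7 and 52.7 CPM in the lenvatinib libraries and at 52.9, 52.0 and 50.0 CPM in the untreated libraries. The groups overlapped throughout, and the log2 fold change was -0.001 with a 95% interval from -0.09 to 0.09 (edgeR adjusted p = 0.987).

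Hey1, a target that with Heyl maintains satellite cells in mice, was higher from a low level. Its row lies on chromosome 3 from 8728419 to 8732316, minus strand. It had 99, 77 and 142 counts in the lenvatinib libraries, or 4.00, 3.15 and 4.38 CPM, against 58, 68 and 60 counts in the untreated libraries, or 2.18, 2.66 and 2.08 CPM. The second library was the lowest of the lenvatinib group and the second library the highest of the untreated group, and they did not meet. Hey1 was 1.68-fold higher (log2 fold change 0.75 ± 0.17 SE, 95% interval 0.41 to 1.09, edgeR adjusted p = 0.000438).

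Heyl, on chromosome 4 from 123127349 to 123143668, plus strand, stood at 14.1, 14.6 and 15.4 CPM in the lenvatinib libraries and at 13.7, 13.2 and 12.7 CPM in the untreated libraries. All lenvatinib libraries were above all untreated ones, but the gap was narrow and the log2 fold change of 0.16 ± 0.08 SE (unadjusted 95% interval 0.001 to 0.31) did not pass (edgeR adjusted p = 0.133). Hey2, a HEY gene of heart and vessels, lies on chromosome 10 from 30708355 to 30718797, minus strand. It had 1, 4 and 5 counts in the lenvatinib libraries and 0, 2 and 5 counts in the untreated libraries. These lie around the floor of 3 counts (0.0926 to 0.123 CPM per library), and no fold is given. A row near 0 does not show here that a transcript is missing: the cyclin gene Ccna2 had 0 to 1 counts although the dividing-cell gene Mki67 stood at 60.1 ± 4.64 CPM in lenvatinib and 59.6 ± 5.78 CPM in untreated libraries.

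**Figure D3:**
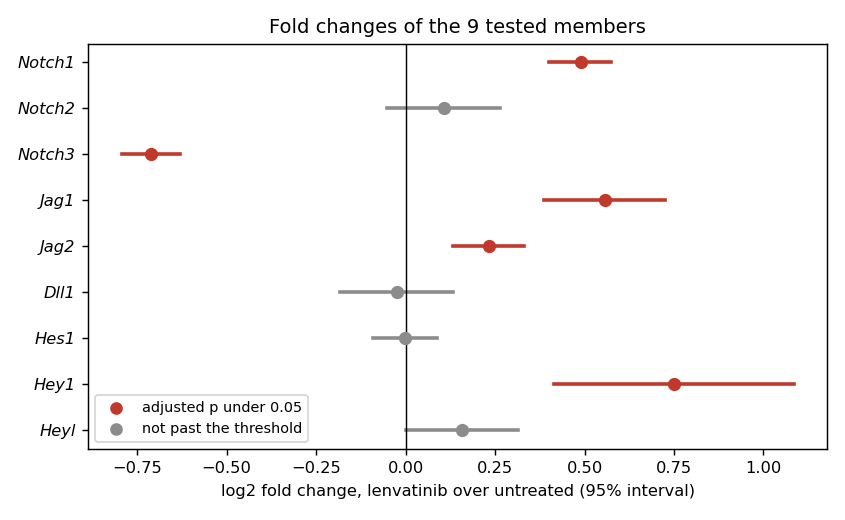
Log2 fold change of lenvatinib over untreated (horizontal axis) for the 9 tested genes; points are edgeR estimates, lines their 95% intervals, and red marks an adjusted p under 0.05. Notch3 is the called gene to the left of 0; Notch1, Jag1, Jag2 and Hey1 are called to the right of 0, and the intervals of Notch2, Dll1 and Hes1 include 0.

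Levels per kilobase put the members in a similar order in both groups, with changes around Notch3. That order depends on the deposited feature lengths. In lenvatinib libraries the order was Hes1 (22.1 CPM per kilobase), Notch2 (10.7), Jag2 (5.95), Notch3 (5.72), Notch1 (5.68), Dll1 (3.61), Heyl (2.81), Jag1 (2.59), Hey1 (1.18) and Hey2 (0.026). Among neighbours in that order the libraries of Jag2 and Notch3, of Notch3 and Notch1, and of Heyl and Jag1 overlapped. In untreated libraries the order was Hes1 (22.2 CPM per kilobase), Notch2 (9.96), Notch3 (9.37), Jag2 (5.07), Notch1 (4.05), Dll1 (3.65), Heyl (2.53), Jag1 (1.77), Hey1 (0.707) and Hey2 (0.0183). There the overlapping neighbours were Notch2 with Notch3 and Notch1 with Dll1. The median row tested stood at 4.83 CPM per kilobase. Precision also differed between members: the coefficient of variation over libraries was smallest for Notch3 in lenvatinib libraries (1.96%, against 2.83% in untreated libraries) and, among the tested members, largest for Hey1 (16.4% in lenvatinib and 13.4% in untreated libraries). Notch1 and Jag1 spread more in lenvatinib libraries (6.97% and 9.49%) than in untreated libraries (2.32% and 2.95%), a difference that was not tested.

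Whether the counting used strand is not stated in the labels, so rows that overlap a member were examined. Of the 10 members 6 have no overlapping row, and the other 4 have 7 such rows between them. None of the 7 exceeded 10 counts in any library. These low counts cannot show whether reads shared by overlapping rows were left out of both.

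Beyond the members, 56 other genes of the pathway were examined in 6 lists by role, and 44 had enough counts for a test. Of these 44, 5 rose and 9 fell, 31.8% in all, close to the 28.2% of all rows, and the median log2 fold change was -0.01. Of the 5 that rose and the 9 that fell, Lfng had the largest change.

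Lfng encodes Lunatic fringe, which adds a sugar to Notch receptors and alters their response to Delta and Jagged ligands. It stood at 17.2, 16.5 and 16.5 CPM in the lenvatinib libraries and at 8.49, 7.56 and 6.05 CPM in the untreated libraries. Every lenvatinib library was above every untreated one, and Lfng was 2.28-fold higher (log2 fold change 1.19 ± 0.09 SE, edgeR adjusted p = 2.5e-13), a larger absolute change than in 98.2% of rows. The other 4 tested sugar-transfer genes did not pass: Eogt had a log2 fold change of 0.17, Rfng of 0.11 and Pofut1 of 0.07 (edgeR adjusted p = 0.0599, 0.157 and 0.221), and Poglut1 of -0.005. Eogt passed with upper quartile scaling (adjusted p = 0.0498) and without the third untreated library (0.0313). Mfng had too few counts.

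The proteases that cut the receptor showed small differences. Of 10 tested genes 1 fell and 9 did not pass, so 10% were called, against 28.2% of all rows. The gene that fell was Psenen, a subunit of the gamma-secretase complex, at 27.2 ± 0.49 CPM in lenvatinib and 30.6 ± 1.49 CPM in untreated libraries (log2 fold change -0.17, edgeR adjusted p = 0.0179). It did not pass with DESeq2 (adjusted p = 0.0573), nor without the third lenvatinib library (adjusted p = 0.0777), the second untreated library (0.078) or the third untreated library (0.0773). Furin and Aph1b had log2 fold changes of -0.07 and 0.15 and did not pass (edgeR adjusted p = 0.0669 and 0.0841). Furin passed with a minimum of 5 CPM (adjusted p = 0.0437) and without the third untreated library (0.0286), and Aph1b without the second lenvatinib library (0.0367).

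In the list of endocytosis and ubiquitin ligases 4 of 12 tested genes fell and 1 rose, 41.7% in all, against 28.2% of all rows. Fbxw7, the ligase subunit that marks the Notch intracellular domain for degradation, stood at 66.3 ± 2.06 CPM in lenvatinib and 76.4 ± 2.38 CPM in untreated libraries (log2 fold change -0.21 ± 0.04 SE, edgeR adjusted p = 5.27e-05). Neurl1a, a ligase that acts on ligands, fell by 0.12 and the Deltex gene Dtx4 by 0.20 on the log2 scale (edgeR adjusted p = 0.00192 and 0.00354), though the groups overlapped for Dtx4. Numb, a Notch antagonist of dividing progenitors, fell by 0.17 (edgeR adjusted p = 0.0323) but did not pass with DESeq2 (adjusted p = 0.095), with rows of few counts kept (0.065), or when any single library other than the third untreated one was left out (0.0623 to 0.133). The gene that rose was Dtx2 (log2 fold change 0.14, edgeR adjusted p = 0.0399), named after its value was seen. It did not pass with DESeq2 (adjusted p = 0.111), with the replicate number as a block (0.0538), or without library 2 or library 3 of either group (0.0838 to 0.182).

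In the nuclear complex 4 of 14 tested genes fell and 2 rose, 42.9% in all, against 28.2% of all rows. Rbpj itself, named for its role, was at 55.5 ± 2.56 CPM in lenvatinib and 58.8 ± 3.61 CPM in untreated libraries and did not pass (edgeR adjusted p = 0.176). Snw1, a co-activator that binds RBPJ and also works in splicing, stood at 99.8, 99.1 and 101 CPM in the lenvatinib libraries and at 117, 114 and 119 CPM in the untreated libraries (log2 fold change -0.22 ± 0.03 SE, edgeR adjusted p = 9.17e-07). The Mastermind co-activators went both ways: Maml3 fell by 0.30 and Maml1 by 0.17 on the log2 scale, and Maml2 was higher by 0.24 (edgeR adjusted p = 4.86e-05, 0.00546 and 0.00223). The Maml2 call was lost without the third lenvatinib library (adjusted p = 0.0578). The remaining calls, named after their values were seen, were the co-repressor Spen, which fell by 0.11, and the deacetylase Hdac1, with a log2 fold change of 0.12 (edgeR adjusted p = 0.0244 and 0.0377). With DESeq2 neither passed (adjusted p = 0.0662 and 0.108), and with the replicate number as a block Hdac1 did not (0.0525). Spen did not pass without the first lenvatinib library, where its log2 fold change was -0.06 (adjusted p = 0.256), or without the first untreated or the third untreated library (0.124 and 0.0764). Hdac1 did not pass when any single library other than the third lenvatinib one was left out (0.0587 to 0.121).

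**Figure D4:**
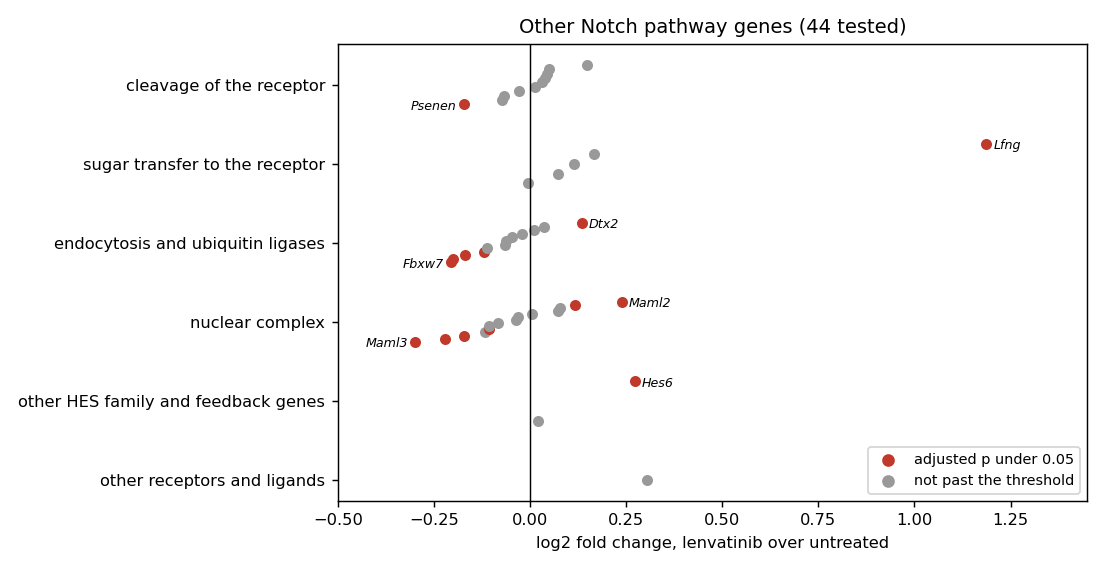
Log2 fold change of lenvatinib over untreated (horizontal axis) for the 44 tested pathway genes outside the 10 members, by role; each point is a gene, red marks an edgeR adjusted p under 0.05, and the called gene with the largest change in each direction of a list is named. Lfng stands alone at 1.19, and all other called genes lie between -0.30 and 0.27.

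Other receptors and ligands were scarce in these counts. Of Notch4, Dll3, Dll4, Dlk1, Dlk2 and Dner, 5 had too few counts for a test, and Dlk2, at 0.667 ± 0.066 CPM in lenvatinib and 0.543 ± 0.030 CPM in untreated libraries, did not pass (edgeR adjusted p = 0.56). Of 7 further HES family and feedback genes 2 were tested. Hes6, which antagonises HES1 and accompanies muscle differentiation, stood at 304.6, 295 and 299 CPM in the lenvatinib libraries and at 251, 248 and 245 CPM in the untreated libraries. The groups did not overlap, and Hes6 was 1.21-fold higher (log2 fold change 0.27 ± 0.03 SE, edgeR adjusted p = 1.13e-10). Nrarp, a feedback inhibitor that Notch induces, was at 1.13 ± 0.020 CPM in lenvatinib and 1.10 ± 0.22 CPM in untreated libraries and did not pass (edgeR adjusted p = 0.964).

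Genes of satellite cells and of reserve cells, the undifferentiated cells that remain in C2C12 cultures, were examined beside the pathway. Of 11 tested genes 6 rose and 2 fell, 72.7% in all, while 28.2% of all rows tested were called. Those that rose were Col5a1, Col5a2, Col5a3, Col6a1, Myf5 and Sdc4. Cd34, Itga7 and Pax7 did not pass (edgeR adjusted p = 0.0705, 0.257 and 0.48), and Calcr had 0 counts in all 6 libraries. Col5a1, a collagen V chain gene that Notch activates in mouse satellite cells, was at 1082 ± 30.8 CPM in lenvatinib and 725 ± 5.63 CPM in untreated libraries (log2 fold change 0.58 ± 0.03 SE, edgeR adjusted p = 1.59e-21). Col6a1 and Col5a2 rose by 0.57 and 0.46 on the log2 scale (edgeR adjusted p = 2.23e-20 and 2.61e-19). Vcam1, an adhesion molecule of satellite cells, fell, at 59.8 ± 1.96 CPM in lenvatinib and 99.2 ± 0.92 CPM in untreated libraries (log2 fold change -0.73 ± 0.04 SE, edgeR adjusted p = 8.95e-20). The other gene that fell was Spry1, a feedback inhibitor of growth factor signalling, by 0.53, named after its value was seen. The deposited feature length of Spry1, 6260 bases, exceeds the 4652 bases that its positions span, so its length and positions disagree. What the Spry1 row counts is unclear, and whether it holds other reads was not tested. Also named after its value was seen, Pax7, the defining transcription factor of satellite cells, was at 11.6 ± 0.41 CPM in lenvatinib and 10.9 ± 0.36 CPM in untreated libraries and did not pass (edgeR adjusted p = 0.48).

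Markers of cell state and of other cell types were measured in the same libraries. The tested genes called were 87.5% of muscle, 57.1% of dividing-cell, 75% of mural cell and 25% of macrophage markers, against 28.2% of all rows. Of 7 tested markers of dividing cells 4 rose (Mcm2, Pcna, Top2a and Cdk1) and 3 did not pass, with a summed level of 330.4 to 343 CPM in lenvatinib and 276 to 312 CPM in untreated libraries. The Cdk1 call was lost without the third lenvatinib or the third untreated library (edgeR adjusted p = 0.0633 and 0.0766). Of 8 muscle markers 5 rose (Myog, Myod1, Ckm, Mymk and Myh3), and Mef2c and Des fell by 0.43 and 0.19 on the log2 scale. The deposited feature length of Myod1, 3414 bases, also exceeds the 2626 bases that its positions span. The part of dividing-cell and muscle markers in the differences of Notch1, Notch3, Jag1, Jag2 and Hey1 was not tested. Of 10 endothelial markers 3 were tested, Tek, Vwf and Egfl7, which did not pass (edgeR adjusted p = 0.0645, 0.398 and 0.546). The summed level of the 10 was 2.71 to 3.11 CPM in lenvatinib and 2.62 to 3.38 CPM in untreated libraries, and Tie1, Emcn and Sox17 had 0 counts in all 6 libraries. Of 8 mural cell markers, Notch3 among them, 4 were tested: Pdgfrb and Abcc9 rose, Notch3 fell and Cspg4 did not pass (edgeR adjusted p = 0.522). Rgs5 and Cox4i2 had too few counts for a test, and Kcnj8 and Higd1b had 0 counts in all 6 libraries. Of 7 macrophage markers 1 of 4 tested, Cd14, fell by 0.54 on the log2 scale, with a summed level of 5.87 to 6.38 CPM in lenvatinib and 6.58 to 7.48 CPM in untreated libraries, and Adgre1 had 0 counts throughout.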

How the data were processed

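The deposited table holds raw read counts per gene row for 6 libraries, as the authors made them: the aligner was Hisat2 2.0.1, per the labels' protocols, and HTSeq 0.6.1 and mm10 are named in the submitters' processing notes. The labels state no read filter, strand setting or library kit. None of the 10 members has the same start and end in GENCODE M21 (GRCm38), so positions are printed as deposited, without a build. The deposited feature length (unit other, in bases) was used for CPM per kilobase, computed here. Group and replicate number came from sample titles, and columns were matched to samples by name. Replicates differed by more than sampling noise (chi-square per degree of freedom 2.78 to 5.6 over rows with at least 20 summed counts), so no library was a copy.

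Counts were tested with edgeR 4.0.16 (glmQLFit with robust estimation, glmQLFTest) in R 4.3.3 with TMM factors of 0.996 to 1.007. filterByExpr (minimum count 10, minimum total 15) kept 14989 of 56792 rows. The SE was derived from the F statistic. Shares and ratios were compared with two-sided exact permutation tests. The test script was tested on simulated data. The members, gene lists and tests were chosen with earlier results of these data known. The genes named are the 10 members and, from each other pathway list and the list of reserve and satellite cell genes, up to 4 tested genes with the smallest p; others are marked in the text or named for their role or as markers, and 1 gene that the rule picked is not reported here. Calls were recomputed under 15 alternatives (other scalings, filters and threshold, DESeq2 1.42.0, limma-voom 3.58.1, a replicate block, and each library left out). Promoter windows come from RefSeq (GRCm38.p6) by symbol, found for 7 members; Hes1, Hey1 and Heyl had none. Each window was cut from a longer RefSeq sequence that runs past the start. For Notch3 and 1 Dll1 window the end of that longer sequence was not found in a GENCODE M21 transcript. Floors of 3 counts and intervals of counts cover counting error alone, because PCR copies of a molecule were not separated.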

Additional observations from a re-analysis of the deposited data

How the results depend on the processing

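Of 134 pairs of a tested member and an alternative, 124 kept direction and side of the threshold, 2 were the passes of Notch2 given above, and 8 turned the sign of Hes1 or Dll1, which passed in none of the alternatives. The log2 fold change of Hes1, -0.001, was 0.006 with upper quartile scaling, 0.001 with library totals and 0.004 with rows of few counts kept. With a library left out it ran from -0.024 to 0.037 for Hes1, -0.077 to 0.05 for Dll1 and -0.123 to 0.15 for Nrarp, which did not pass either. The log2 fold change of Hey1 was 0.634 to 0.869 with a library left out. Members called stayed at 4 higher and 1 lower, except for 5 higher where Notch2 passed and 3 higher with a minimum of 5 CPM, which left Hey1 out. Other pathway genes called higher numbered 3 in place of 5 with DESeq2, with the replicate block and at an adjusted p of 0.01, 3 to 5 when a library was left out, 6 with library totals, limma-voom or rows of few counts kept, and 7 with upper quartile scaling. Those called lower numbered 6 in place of 9 with DESeq2 and at an adjusted p of 0.01, and 7 to 10 otherwise. The number of rows called ranged from 3049 at an adjusted p of 0.01 to 4276 with upper quartile scaling, against 4228. Without division by length the lenvatinib minus untreated difference in the Notch3 share was -12.1 percentage points, against -14.2; leaving out a library gave -15.0 to -13.2. For the Jag1 share it was 4.44, and 3.46 to 5.29 with a library left out. No pairing by replicate number was seen in the counts: deviations of same-numbered libraries correlated at 0.022, -0.078 and -0.004 over 10002 rows. Libraries did not all correlate best with their own number. These values cannot show whether libraries were prepared in pairs, which the labels do not state. The replicate block gave 4134 rows called and changed no member's call. Depth limits Hey2 (0 to 5 counts per library) and Hey1 (58 to 142 counts).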
